A study of Mus musculus with 6 samples.

Results

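Asns, Psat1, Phgdh, Shmt2, Mthfd2, Chac1, Trib3, Sesn2, Slc3a2 and Slc7a5 are targets of the transcription factor ATF4 that serve serine synthesis, one-carbon metabolism and amino acid supply. These 10 genes were picked by symbol from the 55450 genes of the deposited tables, and each symbol had 1 row. RNA was sequenced from subcutaneous flank tumours grown from MTE-Ras cells, mouse tracheal epithelial cancer cells transformed by oncogenic RAS, in C57BL/6 mice. Of the tumours, 3 had been injected with PV-10, a rose bengal formulation given into the lesion, and 3 with phosphate-buffered saline (PBS). All 6 tumours carried the same transformed line, and dose, interval to collection, sex and age are not given in the sources used here. The labels place the cells in 1 flank and do not state that each tumour had a mouse of its own, so p-values measure the spread between these tumours.

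ATF4 is translated preferentially when the initiation factor eIF2α is phosphorylated, which happens under ER stress, amino acid shortage, heme deficiency or double-stranded RNA. It binds composite C/EBP-ATF elements and induces enzymes and transporters that restore amino acid supply, together with genes that limit the response. Many tumours use the same genes in growth, because serine feeds the folate cycle and leucine uptake feeds mTORC1.

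Gene counts summed to between 36730318 and 94203331 in PV-10 tumours and between 87386266 and 98717951 in PBS tumours. Protein-coding genes held 71.3% to 76.9% of counts in PV-10 tumours, against 87.1% to 89.0% in PBS tumours, and the noncoding RNA Gm42418 held 8.94% to 11.4% in PV-10 tumours and 2.55% to 3.49% in PBS tumours. PV-10 tumour 3 stood nearer to the PBS tumours than to its own group: its log2 CPM (counts per 1000000, with TMM-scaled library sizes) correlated across genes at 0.874 and 0.822 with PV-10 tumours 1 and 2, and at 0.909 to 0.930 with PBS tumours. Of 14 markers of airway and other epithelia, Krt8 ranged from 157 to 270 CPM in PV-10 tumours and from 238 to 394 CPM in PBS tumours. Krt18 ranged from 300 to 354 CPM in PV-10 tumours and from 235 to 378 CPM in PBS tumours (log2 change 0.05). Epcam, by contrast, stayed at or below 1.31 CPM in every tumour and the club cell gene Scgb1a1 had 0 counts in all of them, while Cdh1 (E-cadherin) lay at 3.06 to 5.62 CPM in PV-10 tumours and 8.75 to 10.3 CPM in PBS tumours. Of the 11 tested genes of this list, only Cdh1 (-1.125) and Krt8 (-0.71) had negative log2 changes, and none was called. In bulk RNA, fewer cells of a type and less RNA per cell cannot be told apart.

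Of the 10 genes, 8 had lower mean CPM in PV-10 than in PBS tumours and 2, Psat1 and Phgdh, did not. A negative log2 change was found in 41.5% of all tested genes and in 60.6% of those of average log2 CPM at or above 1, to which the 10 belong. None of the 10 passed the test across all 6 tumours (edgeR quasi-likelihood test, Benjamini-Hochberg adjusted p under 0.05 over 22056 genes), where 5.09% of all tested genes passed in either direction. At an unadjusted p under 0.05 there were 5 of the 10, all lower (Slc7a5, Slc3a2, Chac1, Shmt2 and Sesn2), against 14.5% of all tested genes that were lower at that level. Other tools, scalings and filters called between 0 and 6 of the 10, none of them higher. A stricter filter, DESeq2 size factors in edgeR, a non-robust fit and removal of mitochondrial genes called 0, and library size alone called Chac1. Further, limma-voom called Slc7a5 (5.58% of genes lower), DESeq2 called Slc7a5, Slc3a2, Shmt2 and Chac1 (8.41% of genes lower), and limma on log2(TPM + 1) called these with Asns and Trib3 (12.5% of genes lower). With no filter on low counts, edgeR called Slc7a5, Slc3a2, Shmt2 and Sesn2 (6.7% of genes lower). The median log2 change of the 10 was -0.80, beside a median of 0.30 over all tested genes and of -0.25 over the 12480 more abundant genes (average log2 CPM at or above 1).

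The result depended on PV-10 tumour 3. In every one of the 8 genes with a lower mean, PV-10 tumour 3 had the highest CPM of the PV-10 tumours. Without it, 7 of the 10 genes fell and 0 rose (edgeR adjusted p under 0.05, n = 2 PV-10 and 3 PBS tumours), while 16.4% of 27510 tested genes fell and 41.4% changed in either direction. The 7 were Slc7a5 at a log2 change of -2.13, Sesn2 at -2.03, Slc3a2 at -1.57, Shmt2 at -1.45, Asns at -1.07, Chac1 at -1.03 and Trib3 at -0.92. Leaving out any other single tumour left 0 of the 10 called, and 1 to 5 genes called in all.

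**Figure D1:**
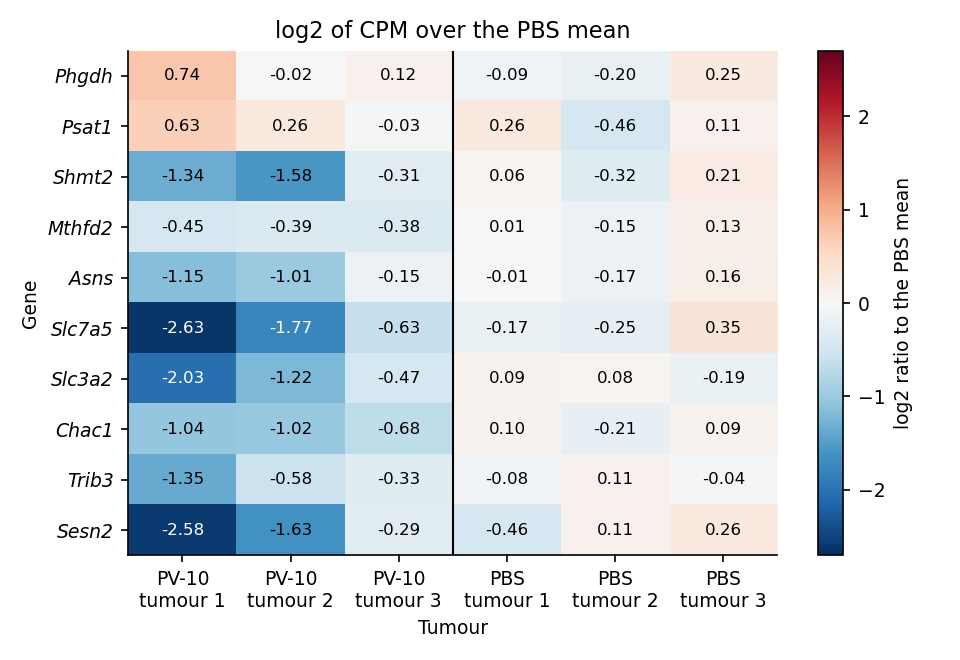
Heat map of the log2 ratio of each gene's CPM to its mean over the 3 PBS tumours, with tumours across (PV-10 left of PBS) and genes down in the order of their roles. The lowest ratios are those of Slc7a5 (-2.63) and Sesn2 (-2.58) in PV-10 tumour 1, while Phgdh and Psat1 reach 0.74 and 0.63 there.

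Phgdh (ENSMUSG00000053398.11, mm10 chromosome 3, 98313170 to 98339990) encodes the enzyme that takes 3-phosphoglycerate into serine synthesis. In PV-10 tumours 1, 2 and 3 it had 141, 83.1 and 91.2 CPM, against 79.2, 73.2 and 99.9 CPM in PBS tumours 1, 2 and 3. The groups overlapped, with PV-10 tumour 1 alone above every PBS tumour, and the log2 change was 0.32 (SE 0.29, edgeR adjusted p = 0.488). Psat1 (ENSMUSG00000024640.9, chromosome 19, 15904678 to 15947337), the aminotransferase of the next step, was at 273, 211 and 172.5 CPM in PV-10 tumours, against 210.5, 128 and 190 CPM in PBS tumours. PV-10 tumours 1 and 2 lay above all PBS tumours and PV-10 tumour 3 lay among them (log2 change 0.31, SE 0.30, edgeR adjusted p = 0.508). Both lay close to the median of all tested genes on this scale, but above the median of -0.25 of the more abundant genes, to which they belong. On the log2(TPM + 1) scale the median of all tested genes was -0.21. There their log2 changes had the other sign, at -0.49 for Phgdh and -0.55 for Psat1.

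The last enzyme of the route, the phosphatase Psph, was at 30.6, 33.5 and 22.4 CPM in PV-10 tumours, against 15.7, 15.8 and 21.1 CPM in PBS tumours, with no overlap. Its log2 change was 0.72 (edgeR adjusted p = 0.109), so all 3 serine synthesis genes had positive log2 changes by CPM and none passed the test. In TPM the groups overlapped for Psph, at 9.16, 13.57 and 9.85 in PV-10 tumours, against 7.1, 9.69 and 11.43 in PBS tumours. Its log2 change on the log2(TPM + 1) scale was 0.19. Per length, the TPM of Psph over that of Phgdh was 0.270, 0.629 and 0.299 in PV-10 tumours, against 0.220, 0.231 and 0.223 in PBS tumours. This ratio was higher in all 3 PV-10 tumours, at an exact two-sided permutation p of 0.1, the smallest that 3 against 3 allows, and 0.15 after adjustment over 6 ratios. Its log2 difference was 0.72 from TPM and 0.42 from counts. Without PV-10 tumour 2, which had the highest ratio, the difference from TPM was 0.34. The TPM of Psat1 over Phgdh did not separate the groups, at 1.59 ± 0.32 in PV-10 tumours and 1.65 ± 0.33 in PBS tumours (SD, n = 3 each, exact permutation p = 0.6).

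Shmt2 (ENSMUSG00000025403.5, chromosome 10, 127517123 to 127522444) is the mitochondrial enzyme that splits serine into glycine and a folate-bound carbon. Its levels were 68.0, 57.6 and 139 CPM in PV-10 tumours, against 179, 138 and 200 CPM in PBS tumours. PV-10 tumours 1 and 2 were below every PBS tumour, and PV-10 tumour 3 was level with PBS tumour 2 (log2 change -0.97, SE 0.37, edgeR adjusted p = 0.114). Mthfd2 (ENSMUSG00000005667.8, chromosome 6, 83305691 to 83325908), which oxidises that carbon unit in mitochondria, was nearly level among PV-10 tumours: 30.5, 31.8 and 31.9 CPM in PV-10 tumours, against 41.9, 37.3 and 45.4 CPM in PBS tumours. The groups did not overlap, and the log2 change was -0.41 (SE 0.23, edgeR adjusted p = 0.274).

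In TPM, Mthfd2 stood at 0.571, 0.729 and 0.315 of Shmt2 in PV-10 tumours, against 0.253, 0.295 and 0.263 in PBS tumours. By TPM the ratio was thus higher in 3 of 3 PV-10 tumours (exact permutation p = 0.1, adjusted p = 0.15), with PV-10 tumour 3 closest to PBS. From counts its log2 difference was 0.66, against 0.92 from TPM, and PV-10 tumour 3 lay within the PBS range. The counts behind 1 TPM of Mthfd2 also differed between the groups, as described at the end. Shmt2 over its cytosolic paralog Shmt1 was 8.94, 5.79 and 9.51 in PV-10 tumours, against 17.65, 10.8 and 14.0 in PBS tumours. It was lower in every PV-10 tumour (exact permutation p = 0.1, adjusted p = 0.15), and Shmt1 itself had 12.2 ± 2.33 CPM in PV-10 tumours and 13.4 ± 1.51 CPM in PBS tumours. Mthfd2 over the paralog Mthfd2l was 2.21 ± 0.86 in PV-10 tumours and 3.16 ± 0.19 in PBS tumours, also without overlap (exact permutation p = 0.1, adjusted p = 0.15). Mthfd2l itself was at 22.4, 13.9 and 16.1 CPM in PV-10 tumours, against 11.4, 11.4 and 15.3 CPM in PBS tumours, with overlap (log2 change 0.46, edgeR adjusted p = 0.306, and -0.23 on the log2(TPM + 1) scale).

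Among partners of the folate cycle, the cytosolic trifunctional enzyme Mthfd1 was at 21.1, 11.4 and 23.6 CPM in PV-10 tumours, against 42.7, 30.8 and 35.7 CPM in PBS tumours. Mthfd1l, the mitochondrial formate-producing enzyme, was at 42.6, 42.0 and 68.4 CPM in PV-10 tumours, against 95.5, 69.5 and 81.4 CPM in PBS tumours. In both genes every PV-10 tumour lay below every PBS tumour, as in 16.8% of tested genes, and both missed the threshold (edgeR adjusted p = 0.0819 and 0.15). Their log2 changes were -0.96 and -0.69. With the trend in transcript length and GC content described further on removed, they were -0.56 and -0.28.

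Slc7a5 (ENSMUSG00000040010.10, chromosome 8, 121881150 to 121907694) encodes LAT1, the exchanger that brings leucine and other large neutral amino acids into the cell. It had the largest log2 change of the 10, at -1.44 (SE 0.47, edgeR adjusted p = 0.0782), with 21.2, 38.5 and 84.7 CPM in PV-10 tumours, against 116, 110.5 and 166 CPM in PBS tumours. All PV-10 tumours lay below all PBS tumours, and PV-10 tumour 1 was the lowest. Slc3a2 (ENSMUSG00000010095.13, chromosome 19, 8706882 to 8723369), the CD98 heavy chain that carries LAT1 to the plasma membrane, was at 39.7, 69.5 and 117 CPM in PV-10 tumours, against 173, 171 and 142 CPM in PBS tumours. These groups did not overlap either (log2 change -1.11, SE 0.38, edgeR adjusted p = 0.0890).

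Slc7a5 stood at 0.308, 0.329 and 0.380 of Slc3a2 in TPM in PV-10 tumours, against 0.383, 0.327 and 0.619 in PBS tumours, which overlap. The log2 difference of this ratio was -0.34 (exact permutation p = 0.3, adjusted p = 0.36), which does not show that the chains moved alike. Slc3a2 also pairs with other light chains. Of these, Slc7a11, the cystine importer, was at 12.2, 16.1 and 27.9 CPM in PV-10 tumours, against 26.2, 34.9 and 35.8 CPM in PBS tumours (edgeR adjusted p = 0.153), and Slc7a8 (LAT2) was at 16.1, 18.6 and 45.5 CPM in PV-10 tumours, against 90.3, 71.4 and 57.2 CPM in PBS tumours (edgeR adjusted p = 0.0632). Slc7a8 did not overlap between groups, whereas PV-10 tumour 3 reached the PBS range for Slc7a11. The log2 change of Slc7a11, -0.79 by CPM, was 0.092 with the trend in effective length taken out.

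Asns (ENSMUSG00000029752.12, chromosome 6, 7675169 to 7693254) makes asparagine from aspartate with glutamine as nitrogen donor. It was at 46.6, 51.3 and 92.7 CPM in PV-10 tumours, against 102.5, 91.9 and 115 CPM in PBS tumours. PV-10 tumours 1 and 2 were well below PBS and PV-10 tumour 3 lay just above PBS tumour 2 (log2 change -0.70, SE 0.32, edgeR adjusted p = 0.176). Chac1 (ENSMUSG00000027313.3, chromosome 2, 119351229 to 119354381) encodes a cyclotransferase that degrades glutathione. It had the lowest adjusted p of the 10, 0.0662, with 6.61, 6.68 and 8.49 CPM in PV-10 tumours, against 14.5, 11.7 and 14.5 CPM in PBS tumours (log2 change -0.90, SE 0.27, edgeR). Its groups did not overlap, and its PV-10 tumours were close together.

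Trib3 (ENSMUSG00000032715.9, chromosome 2, 152337422 to 152344032) encodes a pseudokinase that restrains ATF4 and AKT signalling. It was at 4.91, 8.38 and 9.94 CPM in PV-10 tumours, against 11.9, 13.5 and 12.2 CPM in PBS tumours, without overlap (log2 change -0.69, SE 0.32, edgeR adjusted p = 0.174). Sesn2 (ENSMUSG00000028893.8, chromosome 4, 132492032 to 132510501), a leucine-binding inhibitor of mTORC1 activation, spread widely among PV-10 tumours, at 4.01, 7.75 and 19.5 CPM, against 17.4, 25.8 and 28.7 CPM in PBS tumours. PV-10 tumour 3 lay above PBS tumour 1, so the groups overlapped (log2 change -1.20, SE 0.51, edgeR adjusted p = 0.152).

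The paralogs that are not classed here as targets differed among themselves. Chac2, which degrades glutathione more slowly, was at 15.3, 15.1 and 8.19 CPM in PV-10 tumours, against 3.43, 6.24 and 5.60 CPM in PBS tumours, without overlap (log2 change 1.34, edgeR adjusted p = 0.0568). With the trend in transcript length and GC content described further on removed, its log2 change was -0.079. Sesn1 was at 26.8 ± 1.47 CPM in PV-10 tumours and 22.2 ± 3.57 CPM in PBS tumours, and Sesn3 at 47.1 ± 26.1 CPM in PV-10 tumours and 102 ± 34.0 CPM in PBS tumours (SD, n = 3 each). Neither was called (edgeR adjusted p = 0.470 and 0.109), and the log2 change of Sesn1, 0.27 by CPM, was -0.38 on the log2(TPM + 1) scale.

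Promoters were read for 9 of the 10 genes from RefSeq windows of 250 bases before to 50 after the start (build GRCm38.p6, that is mm10), and searched on both strands for the core of the C/EBP-ATF element, TGATGNAA. It occurred in 3 of the 9, Asns, Chac1 and Trib3, and in 4.51% of 27025 genes with such windows (3.97% of 32851 windows). The letters are shown with the match in capitals, as the strand read 5′ to 3′ in the direction of the gene, because ATF4 is known to act through this kind of element in the human promoters of these 3 genes. For Asns and Chac1 the 250 bases before the start are given, for Trib3 the 30 bases around its match, and for Phgdh, which had no match and no lower level by CPM, the 250 bases before the start.
Asns (chr6:7693210-7693459, minus strand): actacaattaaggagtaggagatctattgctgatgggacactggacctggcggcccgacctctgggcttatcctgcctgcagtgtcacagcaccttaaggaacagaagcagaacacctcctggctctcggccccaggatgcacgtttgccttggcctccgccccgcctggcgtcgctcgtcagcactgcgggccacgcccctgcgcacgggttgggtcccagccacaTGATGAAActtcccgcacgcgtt
Chac1 (chr2:119350992-119351241, plus strand): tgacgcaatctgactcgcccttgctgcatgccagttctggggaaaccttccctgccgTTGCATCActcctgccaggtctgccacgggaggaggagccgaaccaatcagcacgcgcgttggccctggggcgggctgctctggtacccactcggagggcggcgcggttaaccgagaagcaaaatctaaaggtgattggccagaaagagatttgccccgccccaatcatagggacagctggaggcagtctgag
Trib3 (chr2:152344028-152344057, minus strand): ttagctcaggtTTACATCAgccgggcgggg
Phgdh (chr3:98339970-98340219, minus strand): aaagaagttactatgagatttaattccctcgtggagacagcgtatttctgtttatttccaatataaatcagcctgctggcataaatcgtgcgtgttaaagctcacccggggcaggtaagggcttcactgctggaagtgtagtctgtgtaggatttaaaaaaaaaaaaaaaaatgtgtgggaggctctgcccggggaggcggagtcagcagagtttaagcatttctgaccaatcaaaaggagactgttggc
Counted from the RefSeq start, the match began at position -23 in Asns, at -193 in Chac1 and at 14 in Trib3. The Gencode gene bounds given above differ from these starts, at 7693254 for Asns and 152344032 for Trib3, both on the minus strand. By those bounds the Asns match lies inside the gene and the Trib3 match before it. The Chac1 and Trib3 matches lie on the opposite strand, so the letters printed are the reverse complement of the motif. The windows of Psat1, Shmt2, Mthfd2, Sesn2 and Slc3a2 did not hold these letters, and neither the ER stress element nor the cAMP response element (TGACGTCA) occurred in any of the 9, where 0.119% and 1.79% of all windows held them. A match is a description of the window, and its absence says only that the letters are not there.

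Per transcript length, the order of the 10 genes in PV-10 tumours 1 and 2 differed from that in PBS tumours. In TPM, Slc3a2, Shmt2 and Psat1 held the first 3 ranks in every PBS tumour, at 77.7 ± 18.4, 71.7 ± 12.7 and 67.5 ± 9.30 TPM, which do not differ beyond their spread. In every PV-10 tumour Psat1 was first, as it was in PBS tumour 1, at 45.5 ± 3.19 TPM over the 3 PV-10 tumours (SD, n = 3 each group). In PV-10 tumours 1 and 2 Phgdh was second. PV-10 tumour 3 held the same genes in its first 3 ranks as the PBS tumours, and its Phgdh was at rank 5, as in every PBS tumour. Asns stood at 21.1 ± 14.7 TPM in PV-10 tumours and 57.1 ± 9.57 TPM in PBS tumours. Phgdh stood at 29.5 ± 6.88 TPM in PV-10 tumours and 41.8 ± 9.44 TPM in PBS tumours, which overlap. Slc7a5, sixth in every PBS tumour, stood at 7.78 ± 6.68 TPM in PV-10 tumours and 33.4 ± 9.28 TPM in PBS tumours. Mthfd2 stood at 10.6 ± 2.67 TPM in PV-10 tumours and 19.3 ± 3.60 TPM in PBS tumours. The last 3 ranks in both groups belonged to Trib3, Chac1 and Sesn2. In PV-10 tumours they stood at 3.01 ± 1.33, 2.46 ± 0.911 and 1.71 ± 1.65 TPM, which overlap in their spread between tumours. In PBS tumours they stood at 10.7 ± 1.40, 7.75 ± 0.770 and 6.24 ± 2.22 TPM. Within every tumour Trib3 ranked above the other 2, although by only 1.88 against 1.85 TPM for Chac1 in PV-10 tumour 1.

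**Figure D2:**
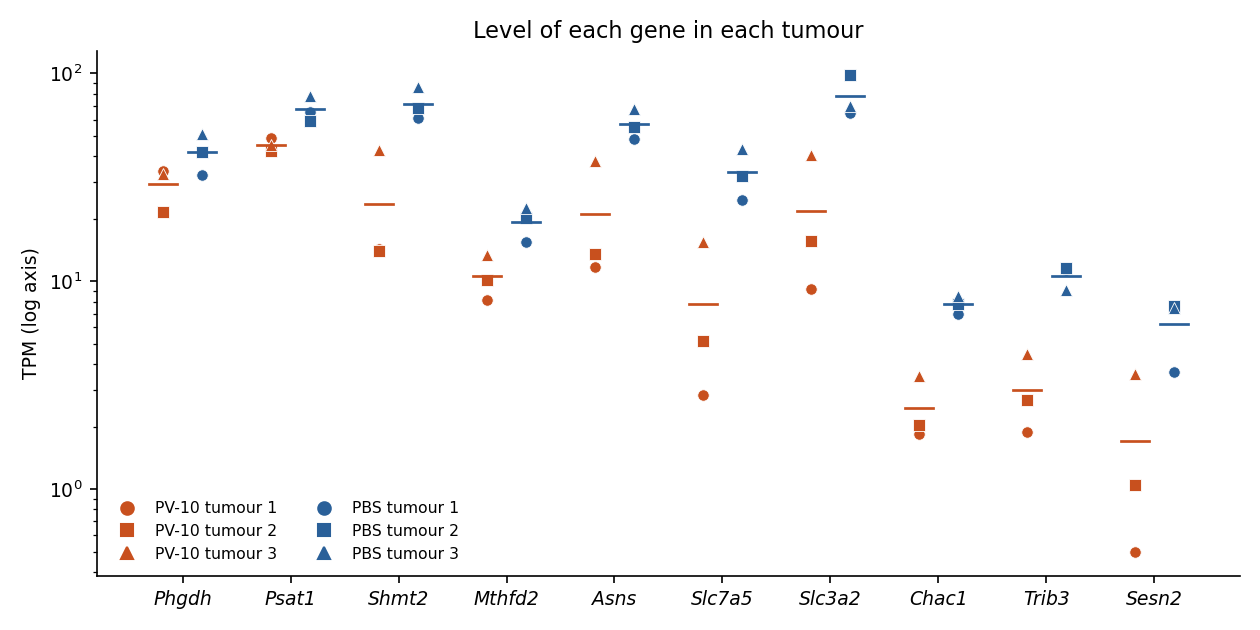
TPM of each gene in each tumour on a log axis, PV-10 tumours in orange on the left and PBS tumours in blue on the right of each gene, with a symbol for each tumour and a bar at the mean of 3. In Psat1 the PV-10 tumours lie together at 42.3 to 48.7 TPM, while in Slc7a5 they spread from 2.83 to 15.4 TPM.

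The summed TPM of the 10 genes was 133, 128 and 240 in PV-10 tumours, against 334, 403 and 442.5 in PBS tumours. Psat1 and Phgdh made up 62.1%, 49.9% and 32.6% of that sum in PV-10 tumours, against 29.3%, 25.1% and 29.1% in PBS tumours. The share was therefore above the PBS range in each PV-10 tumour, and least so in PV-10 tumour 3. In CPM the 3 PV-10 tumours lay below the 3 PBS tumours for 5 of the 10 genes and above them for 0, where 16.8% of tested genes lay below and 22% above. In TPM they lay below for 9 of the 10, Phgdh being the exception, and above for 0, where 31% of tested genes lay below and 9.58% above.

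Transcript length moved with the comparison across all genes, and its part in the values above was not tested beyond the removal described here. Over the same 12480 genes, the log2 change correlated at -0.508 with the log2 length of the longest annotated transcript, across genes, which are not replicates. Relative to the mean of all libraries, log2 CPM changed by -0.32, -0.28 and -0.088 per doubling of length in PV-10 tumours 1, 2 and 3, against 0.15, 0.30 and 0.25 in PBS tumours. The 10 genes span 1637 nt (Chac1) to 3517 nt (Slc7a5). Once the trend of each library with length and GC content was taken out, the signs of all 10 log2 changes were kept and 0 were called (0.00453% of tested genes were). Asns then stood at -0.94, Slc7a5 at -0.85, Slc3a2 at -0.79, Chac1 at -0.78, Shmt2 at -0.53, Mthfd2 at -0.51, Sesn2 at -0.50, Trib3 at -0.29, Psat1 at 0.39 and Phgdh at 0.67.

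**Figure D3:**
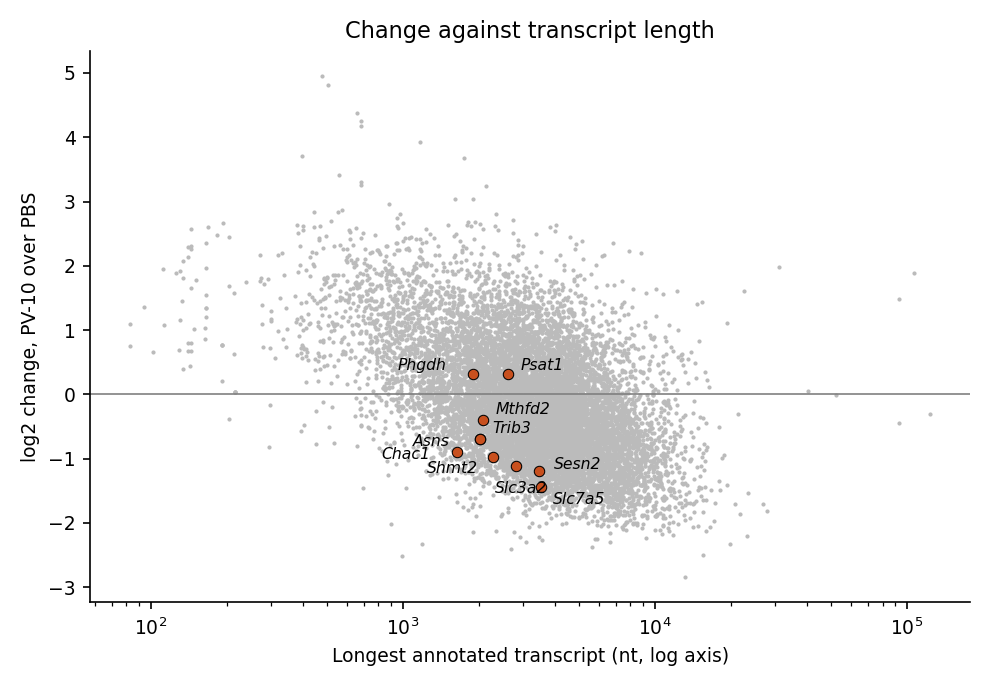
log2 change of PV-10 over PBS (edgeR, all 6 tumours) against the length of the longest annotated transcript on a log axis, with the 12480 more abundant genes in grey and the 10 genes in orange. Longer transcripts have lower log2 changes (r = -0.508 across genes), and the 10 genes run from 0.32 for Phgdh to -1.44 for Slc7a5.

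Taking out the trend and leaving out PV-10 tumour 3, an alternative added after the data were seen, 5 of the 10 passed the test (edgeR adjusted p under 0.05), where 26.6% of 27510 genes did. Asns (-1.28), Slc7a5 (-1.14), Slc3a2 (-1.04) and Shmt2 (-0.70) were lower, and Phgdh was higher, at 0.94, as log2 changes. Chac1, at -0.72, and Sesn2, at -0.84, missed the threshold with adjusted p of 0.0545 and 0.0797 (edgeR).

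**Figure D4:**
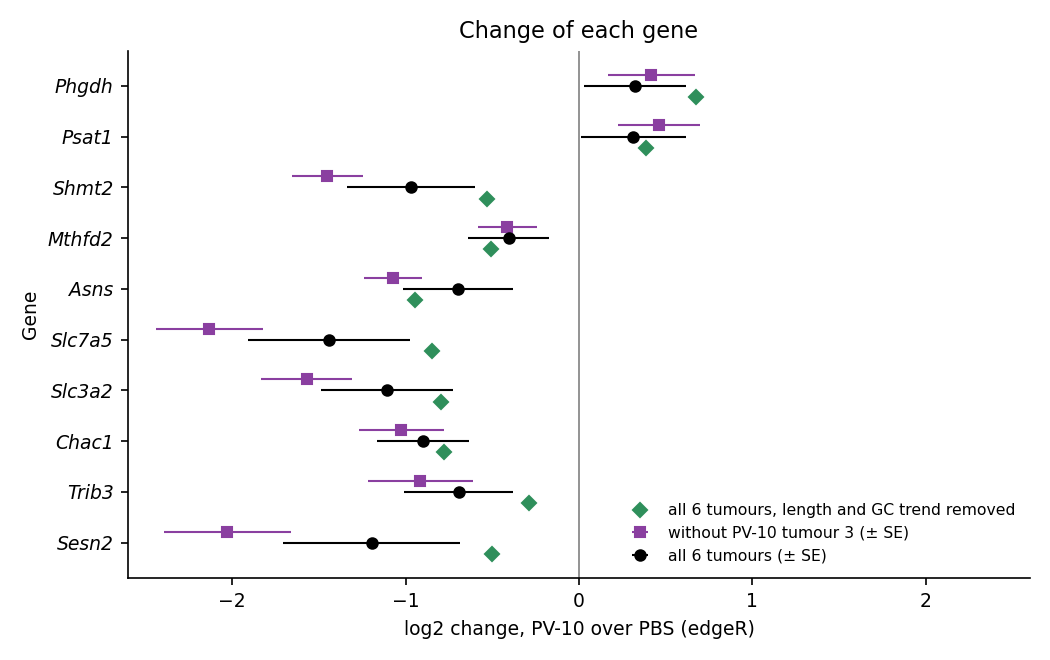
log2 change of PV-10 over PBS for each gene from edgeR, with all 6 tumours (black, ± SE), without PV-10 tumour 3 (purple, ± SE) and with the length and GC trend removed in all 6 tumours (green). Phgdh and Psat1 lie right of 0 and the other 8 genes left of it in all 3 settings, with Slc7a5 at -1.44, -2.13 and -0.85.

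The regulators upstream were measured at the RNA level alone. Atf4 itself, which is controlled mainly by translation, was at 203, 196 and 254 CPM in PV-10 tumours, against 259.5, 231 and 212 CPM in PBS tumours, with overlap (log2 change -0.11, edgeR adjusted p = 0.804). Its log2 change was 0.15 with the length and GC trend taken out and -0.91 on the log2(TPM + 1) scale. In TPM every PV-10 tumour (53.5, 55.5 and 98.4) lay below every PBS tumour (117, 144 and 117). Ddit3 (CHOP), its partner in prolonged stress, was at 12.1, 25.6 and 28.7 CPM in PV-10 tumours, against 32.0, 38.8 and 22.3 CPM in PBS tumours (log2 change -0.49, edgeR adjusted p = 0.390). That change was -1.58 with the length and GC trend taken out and -1.32 on log2(TPM + 1), and in TPM the groups did not overlap, at 7.19, 16.7 and 25.95 in PV-10 tumours, against 34.8, 56.5 and 28.4 in PBS tumours. Among 14 genes for eIF2α, its kinases and phosphatase subunits, and transcription factors, 1 rose, 0 fell and 13 did not pass, with a median log2 change of -0.51, where 3.17% of all tested genes rose and 1.92% fell. The gene that rose was Eif2s1, which encodes eIF2α itself, at 356 ± 144 CPM in PV-10 tumours and 108 ± 27.7 CPM in PBS tumours (log2 change 1.72, edgeR adjusted p = 0.0443). Phosphorylation of eIF2α and ATF4 protein, through which the pathway acts, were not measured.

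Amino acid transporters other than the 2 above had a median log2 change of -0.77 over 22 genes, with 2 that fell and 0 that rose. Slc1a4, a neutral amino acid exchanger, fell to 9.16 ± 4.35 CPM in PV-10 tumours, against 27.1 ± 3.02 CPM in PBS tumours (log2 change -1.56, edgeR adjusted p = 0.0451). Slc6a9, a glycine transporter, fell to 3.22, 4.24 and 15.1 CPM in PV-10 tumours, against 36.1, 34.1 and 35.0 CPM in PBS tumours (log2 change -2.22, edgeR adjusted p = 0.0489). In both genes PV-10 tumour 3 was the highest of its group and still below PBS. Of 13 tested genes for cytosolic aminoacyl-tRNA synthetases, which charge tRNAs and include known ATF4 targets, 1 fell and 0 rose, with a median of -0.80: Eprs, at 78.0 ± 22.5 CPM in PV-10 tumours and 200 ± 26.2 CPM in PBS tumours (log2 change -1.36, edgeR adjusted p = 0.0443).

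Of 26 genes of amino acid sensing towards mTORC1, 2 rose and 1 fell (median -0.10). Lamtor3, a subunit of the lysosomal Ragulator complex, rose to 107 ± 39.7 CPM in PV-10 tumours, against 35.0 ± 1.57 CPM in PBS tumours (log2 change 1.61, edgeR adjusted p = 0.0443). Lamtor5, another subunit, rose to 158 ± 79.97 CPM in PV-10 tumours, against 38.7 ± 17.0 CPM in PBS tumours (log2 change 2.03, edgeR adjusted p = 0.0457). Mtor, the kinase itself, fell to 24.1 ± 6.67 CPM in PV-10 tumours, against 55.1 ± 6.47 CPM in PBS tumours (log2 change -1.19, edgeR adjusted p = 0.0477). With length and GC trends taken out, the log2 change of Mtor was 0.091. Of 22 other serine, glycine and folate genes 1 rose and 0 fell (median -0.03): Ggh, which trims folate polyglutamates, at 47.6 ± 14.1 CPM in PV-10 tumours and 13.7 ± 2.14 CPM in PBS tumours (3.47-fold, edgeR adjusted p = 0.0443).

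The calls in these lists, 8 of 133 genes or 6.02%, lay near the 5.09% of all tested genes and depended on single tumours. Leaving out PV-10 tumour 1, PV-10 tumour 2 or any of the 3 PBS tumours left 0 of the genes of these lists called. Without PV-10 tumour 3, 70 (52.6%) were called, against 41.4% of all genes tested. None of the 8 was called with the length and GC trend taken out. Apart from Mtor they then kept their sign, with log2 changes of 1.36 for Eif2s1, 0.99 for Ggh, 1.23 for Lamtor3, 0.98 for Lamtor5, -1.04 for Slc1a4, -1.65 for Slc6a9 and -1.04 for Eprs.

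No gene passed the test (edgeR) among 19 other genes of amino acid synthesis and conversion (median -0.25), 8 other ATF4 targets of stress and growth (median -0.50) or 9 tested genes of glutathione synthesis and turnover (median -0.17). At an unadjusted p under 0.05 these lists held 4, 2 and 2 genes, where 30% of all tested genes were at that level, and DESeq2 called 4, 1 and 1, where it called 29.6% of all genes. Their most abundant members by TPM had log2 changes of 0.18 for Glud1, glutamate dehydrogenase, -0.75 for Eif4ebp1, a repressor of translation, and 0.04 for Gclm, a subunit of the enzyme that starts glutathione synthesis. The values for Glud1 and Gclm were -0.60 and -0.82 on the log2(TPM + 1) scale.

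**Figure D5:**
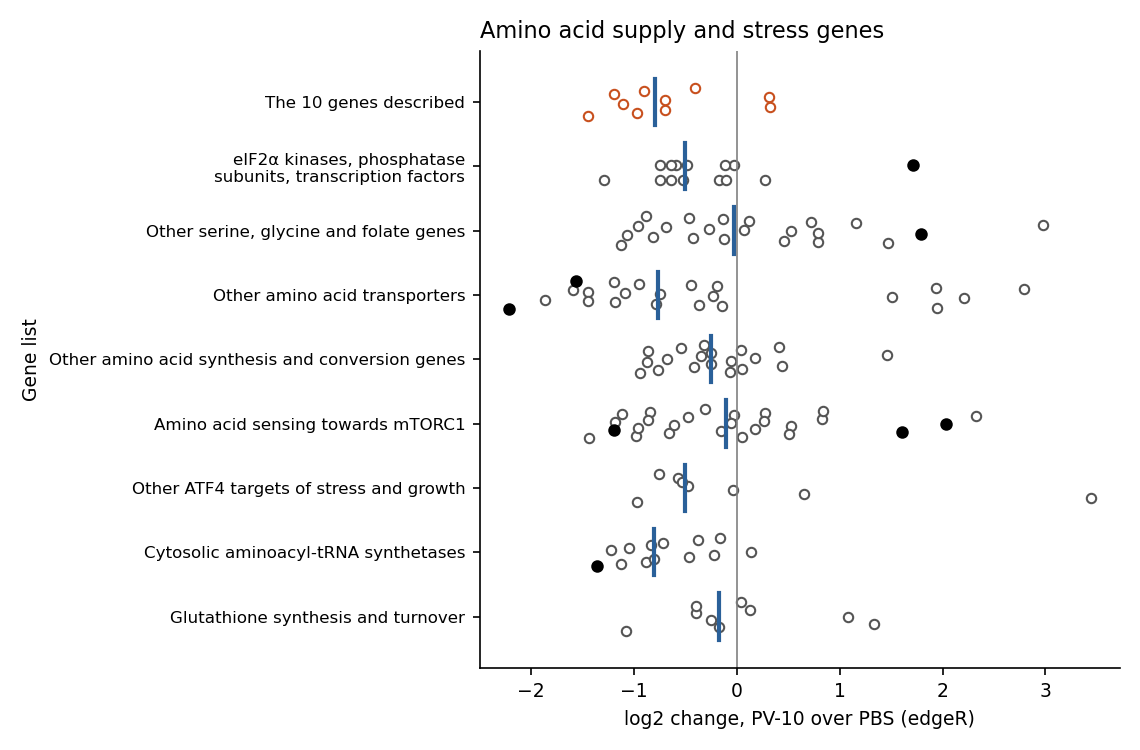
log2 change of PV-10 over PBS (edgeR, all 6 tumours) for each tested gene of the lists, with open points for genes that did not pass the test, filled black points for those that did, and a blue bar at each list's median. The medians run from -0.80 for the 10 genes and for the aminoacyl-tRNA synthetases to -0.03 for the other serine, glycine and folate genes.

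Over the 6 tumours, the genes whose log2 CPM followed the mean standardized log2 CPM of the 10 most closely were Foxm1 (Pearson r = 0.998), Pkn3 (0.995), Rangap1 (0.995), Cbx5 (0.994) and Plekhh2 (0.994), all described over the same 6 libraries. That mean was lowest in PV-10 tumours 1 and 2, intermediate in PV-10 tumour 3 and highest in PBS tumours. Foxm1, a transcription factor of cycling cells, was at 26.4, 32.3 and 69.3 CPM in PV-10 tumours, against 129, 93.6 and 186 CPM in PBS tumours. With the length and GC trend taken out, the log2 changes of these genes were nearer 0, at -0.89 for Foxm1, -0.10 for Pkn3, -0.28 for Rangap1, -0.41 for Cbx5 and -0.21 for Plekhh2, against -1.67, -0.93, -0.83, -0.89 and -0.95 in the same order before it. Within the 10, Psat1 and Phgdh ran against the mean, at r = -0.471 and -0.434, while the other 8 lay between 0.834 and 0.974. Each of the 10 is itself part of that mean, which the 8 dominate, so these r values are a description only.

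Markers of other cells varied between tumours beside these values. The summed CPM of 9 fibroblast markers was 3062 to 5823 in PV-10 tumours and 2468 to 5515 in PBS tumours, and that of 10 macrophage markers 1186 to 1596 in PV-10 tumours and 1324 to 2081 in PBS tumours. The 14 epithelial markers summed to 515 to 696.5 CPM in PV-10 tumours and 523 to 868 CPM in PBS tumours. Endothelial markers summed to 127 to 402 CPM over 8 genes in PV-10 tumours and 208 to 474 CPM in PBS tumours. The 8 skeletal muscle markers summed to 74.9, 340 and 4.58 CPM in PV-10 tumours 1, 2 and 3, and to 4.23 to 38.8 CPM in PBS tumours. Sums for T and NK cell markers (10 genes) were 19.8 to 71.3 CPM in PV-10 tumours and 15.4 to 32.7 CPM in PBS tumours. Those for neutrophil markers (8 genes) were 6.19 to 13.6 CPM in PV-10 tumours and 7.47 to 10.8 CPM in PBS tumours. Skin and hair markers (10 genes) summed to 7.97 to 26.2 CPM in PV-10 tumours and 2.68 to 9.54 CPM in PBS tumours, and adipocyte markers (6 genes) to 0 to 11.1 CPM in PV-10 tumours and 0.569 to 1.21 CPM in PBS tumours. No defining marker of macrophages, fibroblasts or endothelium was at 0 in any tumour, while each adipocyte marker had 0 counts in at least 1. Tested were 11 epithelial, 10 macrophage, 10 T and NK cell, 4 neutrophil and 9 fibroblast markers. So were 8 endothelial, 7 skin and hair, 8 skeletal muscle and 3 adipocyte markers. Of all these markers 2 rose and 0 fell (edgeR), a share near that of all tested genes, of which 3.17% rose and 1.92% fell. Klrd1, a receptor chain of NK and T cells, was at 8.80, 14.8 and 7.94 CPM in PV-10 tumours, against 2.33, 2.38 and 2.19 CPM in PBS tumours (log2 change 2.19, edgeR adjusted p = 0.0443). Dpt, a matrix protein gene of fibroblasts, was at 25.2, 22.7 and 7.35 CPM in PV-10 tumours, against 3.31, 2.75 and 5.54 CPM in PBS tumours (log2 change 2.25, edgeR adjusted p = 0.0443). The other fibroblast markers were not called and ran in both directions, with log2 changes from -1.45 for Pdgfrb to 1.29 for Lum. The part of these cells in the values above was not tested.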

How the data were processed

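Per the labels' protocols, 100 ng of RNA per tumour went into strand-specific libraries read as pairs of 100 bases. Per the labels' protocols, the authors trimmed adapters (BBMerge 37.02, cutadapt 1.8.1), used STAR 2.7.7a for alignment against mm10 and took gene-level estimated counts from RSEM 1.3.0 with Gencode release M21. The deposited expected counts are whole numbers, not normalized. The deposited TPM values, from the same processing, are scaled by length and to 1000000 per tumour. Columns were matched to tumours by library name.

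Counts were tested with edgeR 4.0.16 (R 4.3.3): default expression filter, TMM, robust quasi-likelihood fit of group alone. Standard errors were obtained by dividing log2 changes by the root of F. Alternatives used DESeq2 1.42.0 and limma 3.58.1 (TPM with a pseudocount of 1 or 0.1). Length trends were fitted per library with splines of 5 degrees of freedom on genes of average log2 CPM of at least 1. The edgeR fit was tested on simulated counts that held no trend with length and no outlying tumour. That test therefore does not cover these features of the data. Total counts set the precision, and the labels name no molecular identifiers. Genes named are the 10, 12 partners fixed by name, up to 3 called genes of each list or else the most abundant, and the 5 closest in pattern. Members and lists were chosen with earlier results of these data known. Near-identical genes remain uncertain, since RSEM divides shared reads between them.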

Additional observations from a re-analysis of the deposited data

How the results depend on the processing

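Over all 22056 genes edgeR called 1122, with an adjusted p of 0.0443 at the lowest; 62.3% of them were higher in PV-10 tumours. Counts of called genes moved with nearly every choice, and the causes were not tested. DESeq2 called 8160 genes (71.6% higher), DESeq2 size factors in edgeR 2537, library size alone 2441 (40.1% higher), no filter 4664, a stricter filter 2705, limma-voom 2097, limma on log2(TPM + 1) 2917 (5.55% higher) and limma on log2(TPM + 0.1) 3175. In the same order, the called genes of the pathway lists, 8 in the report, numbered 46, 18, 24, 35, 20, 16, 28 and 32. Of the 10 ATF4 targets, DESeq2 called 4, library size alone 1, no filter 4, limma-voom 1, and either TPM scale 6, all lower. Over all tested genes the median log2 change was 0.30 under TMM, 0.21 under library size and -0.21 on log2(TPM + 1), and the median of the 10 was -1.55 on log2(TPM + 1) and -1.73 on log2(TPM + 0.1). With the trend in effective length, or in length and GC, taken out, 1 gene was called in all and 0 in the pathway lists. Leaving out 1 tumour at a time gave 1 to 11399 called genes, 0 to 7 of the 10 and 0 to 70 in the lists, the upper values without PV-10 tumour 3. Without that tumour and with length and GC trends out, chosen after seeing the data, 7321 genes, 5 of the 10 and 37 in the lists were called.

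Replicate numbers in the labels gave no clear sign of pairing: deviations from group means correlated at -0.0486, 0.0711 and 0.0722 for tumours 1, 2 and 3. PV-10 tumours 2 and 3 correlated best with the PBS tumour of their own number, and PV-10 tumour 1 with PBS tumour 2. With 3 tumours a group this cannot show that they were unpaired. With the replicate block 2872 genes, 2 of the 10 (Slc7a5 and Sesn2) and 28 in the lists were called, and with the block and the effective length trend removed 1 of the 10.

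Some log2 changes and 1 ratio reversed, among them Mtor, which was called with all 6 tumours, and Chac2 and Slc7a11, which were not. For Psat1 over Phgdh the log2 difference was 0.026 from counts, 0.012 to 0.10 without PV-10 tumour 1, PV-10 tumour 3 or PBS tumour 1. On log2(TPM + 1) and log2(TPM + 0.1), Psat1 stood at -0.55 and -0.56, Phgdh at -0.49 and -0.51, Mthfd2l at -0.23 and -0.27, Sesn1 at -0.38 and -0.44, Glud1 at -0.60 and -0.61, and Gclm at -0.82 and -0.83. Gclm was also at -0.052 with library size alone, at -0.021 with no filter and at -0.042, -0.11 and -0.16 without PV-10 tumour 3, PBS tumour 2 or PBS tumour 3, against 0.34 without PBS tumour 1. A stricter filter put Atf4 at 0.048 and Shmt1 at 0.019. With the effective length trend out, without and with the block, Shmt1 was at 0.11 and 0.11 and Slc7a11 at 0.092 and 0.072. With length and GC trends out, for all tumours and then without PV-10 tumour 3, Atf4 was at 0.15 and 0.22, Chac2 at -0.079 and -0.054, and Mtor at 0.091 and 0.14. All other named genes kept their direction under the 21 alternatives.

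With 3 tumours a group, the biological coefficient of variation was 0.777. The fewest counts behind any of the 10 genes in a tumour were 233, so counting error is small beside the spread between tumours.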

Other observations

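The counts behind 1 TPM, relative to the library's median over 4142 genes of at least 5 TPM in every tumour, track the effective length that RSEM assigned to a gene. For Mthfd2 this quantity was 1.04, 0.951 and 0.959 in PV-10 tumours, against 1.28, 1.18 and 1.13 in PBS tumours, with no overlap. For Trib3 it was 0.725, 0.949 and 0.900 in PV-10 tumours, against 0.497, 0.739 and 0.757 in PBS tumours, and its mean in PV-10 over that in PBS was 1.29, above the 95th percentile of those genes, 1.20. The Mthfd2 value, 0.819, lay below the 5th percentile, 0.830. For the other 8 genes the mean in PV-10 over that in PBS lay between 0.978 and 1.08. Of these, Psat1 also had no overlap, at 1.559, 1.522 and 1.537 in PV-10 tumours, against 1.513, 1.376 and 1.376 in PBS tumours. Isoform values were not used here.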
